A study of Mus musculus with 33 samples.

Results

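The set of genes described here comprised the enzymes that write DNA methylation (Dnmt1, Dnmt3a and Dnmt3b), the enzymes that oxidise it (Tet1, Tet2 and Tet3), and proteins that read it (Mbd1, Mbd2 and Uhrf1). These 9 genes were taken by their symbols from the 23366 genes of the female count table and from the 23366 genes of the male count table, and all 9 were found in both. RNA-Seq was carried out on frontal cortex from 33 C57BL/6 mouse offspring aged about 1 month, with 1 pup taken per litter. Dams were exposed during pregnancy by whole-body inhalation, and then together with their nursing pups, to filtered air or to aerosol from e-cigarettes with a classic tobacco flavour. By label, the libraries comprised 6 females and 6 males exposed to air. Nicotine aerosol, from cartridges with 13 to 16 mg/mL, was given to 5 females and 6 males. Aerosol without nicotine was given to 5 females and 5 males. In 1 library labelled male with nicotine, described below, the counts of sex-linked genes went against the label. No genetic alteration was used, and the groups of a sex are told apart by the exposure of dam and pup. The question addressed was whether either aerosol altered gene expression in the offspring of each sex.

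DNA methyltransferases add a methyl group to cytosine, mostly where a C is followed by a G (a CpG site). Dnmt1 copies existing methylation onto newly made DNA strands, and Uhrf1 brings it to the half-methylated sites that replication leaves. Dnmt3a and Dnmt3b methylate new sites, and Dnmt3a is the form that mature neurons use, where it also methylates cytosines outside CpG sites in early postnatal life. The Tet enzymes oxidise methylcytosine to hydroxymethylcytosine, which is abundant in neurons, and so begin its removal. Mbd1 and Mbd2 bind methylated CpG sites and recruit repressor complexes.

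None of the 9 genes passed the test for a change with exposure in either sex. At an adjusted p below 0.01 in edgeR's quasi-likelihood test, 0 of 9 passed in any of the 6 comparisons of groups within a sex. With DESeq2 or limma-voom 0 of 9 passed, but DESeq2 gave no adjusted p for Dnmt3b and Uhrf1 for nicotine against air in males. All 9 genes had been tested by edgeR in both tables, so no gene of the set was lost to the filter on low counts used there. Among all genes tested, the share that passed was 4.29% for nicotine against air in females, 12.1% for no nicotine against air in females, 0.0% for nicotine against no nicotine in females, 0.0% for nicotine against air in males, 13.6% for no nicotine against air in males and 0.248% for nicotine against no nicotine in males. At an unadjusted p below 0.05, the genes of the set that passed in females were 2 of 9 with nicotine, where 28.1% of all genes passed, 1 of 9 without nicotine, where 36.4% passed, and 1 of 9 between the aerosols, where 8.36% passed. In males they were 1 of 9 with nicotine against 14.4% of all genes, 2 of 9 without nicotine against 36.0%, and 2 of 9 between the aerosols against 20.1%. For every gene of the set and in every comparison the values of the groups overlapped. Over all genes, the share whose groups did not overlap was 6.67% with nicotine, 10.7% without and 1.01% between the aerosols in females, and 2.05%, 12.4% and 2.15% in males. With shares this low, the overlap of all 9 does not set them apart from other genes.

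**Figure D1:**
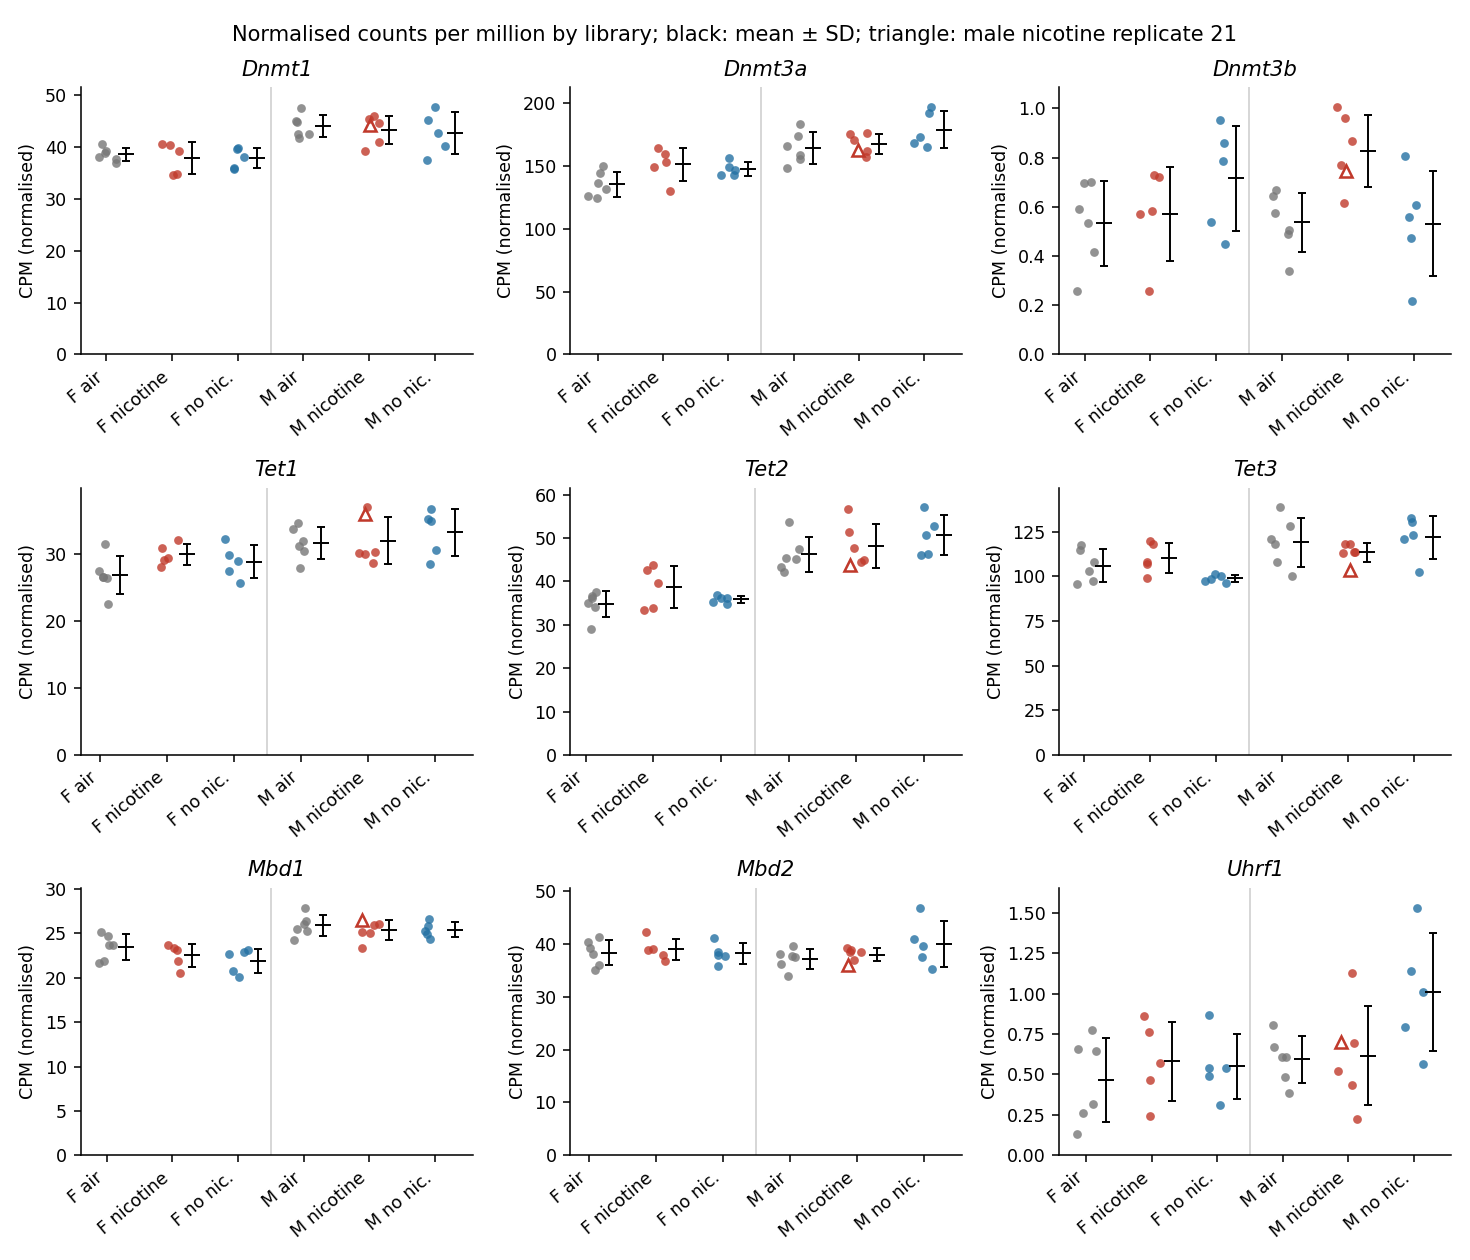
Normalised CPM (counts scaled to the size of the library) of the 9 genes in each of the 33 libraries, by sex and exposure, with the mean and SD of each group in black and an axis from 0. The groups of a sex overlap in every panel, and Dnmt3b and Uhrf1 reach at most 1.01 and 1.53 CPM.

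Library totals ran from 19150562 to 27513174 counts in females and from 17845672 to 24787955 in males, and values are given as CPM, counts scaled to the library total, after TMM normalisation, which corrects that total for differences in composition. Counting error was therefore small for 7 of the genes, which had between 428 (Mbd1) and 4765 (Dnmt3a) counts in any library, and large for Dnmt3b with 5 to 25 and Uhrf1 with 3 to 38. The sexes were sequenced in separate runs, so sex and run cannot be told apart and levels are shown for each sex side by side. The library labelled male nicotine replicate 21 carried 219 CPM of Xist, the RNA of the inactive X chromosome, and 1 count over the Y-linked genes, where the 16 other male libraries had at most 0.246 CPM and at least 2140 counts, so it went against its label. Without it the share of all genes that passed between the aerosols in males was 0.0328%, with 0.0% for nicotine and 13.2% for no nicotine against air, and 0 of 9 genes of the set passed in any male comparison. At an unadjusted p below 0.05 in edgeR, 1 of 9 then passed for nicotine against air, where 13.1% of all genes passed. It was 1 of 9 for no nicotine against air, where 35.8% passed, and 2 of 9 between the aerosols, where 18.4% passed. The log2 fold changes of the 9 genes with nicotine in males are given with and without that library. Their means, ranges, intervals and counts of libraries include it. Markers of several cell types moved with exposure. The median log2 fold change of 16 markers of cortical glutamatergic neurons in females was -0.63 with nicotine and -0.88 without. In males it was -0.30 and -0.72. In edgeR, 2 of the 16 passed as lower in females with nicotine, 12 in females without and 11 in males without. In each of these groups 1 passed as higher. Of 9 striatal neuron markers, 3 passed as higher in females with nicotine, 1 in females without and 2 in males without. Of 8 GABAergic interneuron markers 3, 6 and 4 passed there, in both directions. In males with nicotine 0 of these markers passed, with 11 of 16, 0 of 9 and 5 of 8 at an unadjusted p below 0.05 in edgeR. Markers of oligodendrocytes and myelin passed as higher in 8 of 8 genes in females with nicotine, 7 of 8 in females without and 8 of 8 in males without, with median log2 fold changes of 0.72, 0.61 and 0.72, and in 0 of 8 in males with nicotine, with a median of 0.18 and 0 of 8 at an unadjusted p below 0.05 in edgeR. In edgeR, all 8 markers of basal forebrain cholinergic neurons passed as higher in both female comparisons with air and in males without nicotine. In males with nicotine 0 of 8 passed in edgeR, with 8 of 8 at an unadjusted p below 0.05. There the paper, which used DESeq2, reported Chat and Ngfr of these 8 at an adjusted p below 0.01. The part of the cell type markers in the results below was not tested beyond 1 fit that took the cortical marker level as a covariate. That level itself moved with exposure, so the fit cannot tell marker level and exposure apart. In such bulk tissue, fewer cells of a type and less RNA per cell cannot be told apart.

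The levels of the 9 genes in air were compared per kilobase of exon, since a longer transcript gives more reads. In females the order was Mbd2 with 11.9 ± 0.752 CPM per kb (SD, n = 6), Tet3 with 9.57 ± 0.824, Dnmt3a with 8.12 ± 0.617, Mbd1 with 8.10 ± 0.499, Dnmt1 with 7.34 ± 0.243, Tet2 with 3.78 ± 0.330, Tet1 with 1.82 ± 0.194, Uhrf1 with 0.109 ± 0.0609 and Dnmt3b with 0.104 ± 0.0337. The same order was found in males, from Mbd2 with 11.6 ± 0.586 CPM per kb (SD, n = 6) and Tet3 with 10.7 ± 1.24 to Uhrf1 with 0.139 ± 0.0345 and Dnmt3b with 0.105 ± 0.0235. The cortex at this age thus held mainly transcripts of the readers Mbd1 and Mbd2, of Tet3, and of the methyltransferases Dnmt3a and Dnmt1, and few of Dnmt3b and Uhrf1. The ranges of neighbours in this order overlapped for Tet3 and Dnmt3a, Dnmt3a and Mbd1, Mbd1 and Dnmt1, and Uhrf1 and Dnmt3b in both sexes, and for Mbd2 and Tet3 in males. Dnmt1 and Tet2 did not overlap, with ratios of 1.94 in females and 1.66 in males, and Tet2 exceeded Tet1 by 2.07 and 2.34 times. Tet1 in turn exceeded Uhrf1 by 16.7 times in females and 15.4 times in males. Dnmt3a has 18 annotated transcripts, and its place depended on the length used: divided by its longest transcript in place of all its exons it stood above Tet3, at 14.0 against 9.73 CPM per kb in females.

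**Figure D2:**
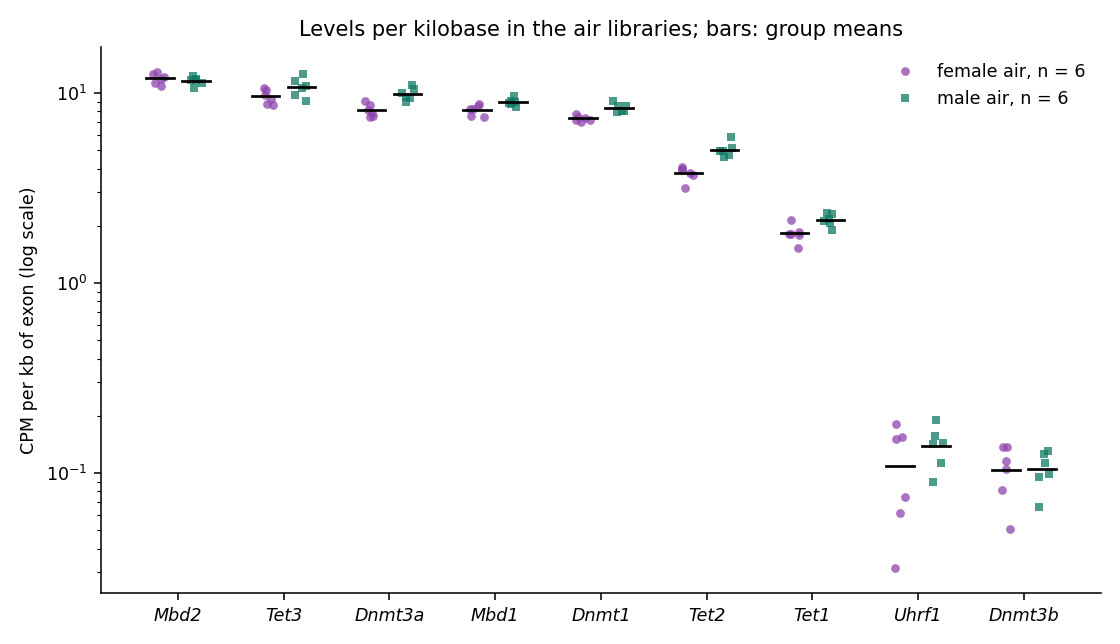
Level per kilobase of exon (log axis, CPM per kb) of each gene in the 6 female and 6 male air libraries, with bars at the group means. Of the 9 genes, 7 lie above 1 CPM per kb, and Uhrf1 and Dnmt3b lie below 0.2 in every air library.

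Dnmt3a, the methyltransferase of new sites in neurons, lies on chr12:3806007-3914443 on the plus strand of mm9, and 133 bases of its exons overlap the antisense gene Gm10485. Its counts sum transcripts from more than 1 start, which a table of 1 value per gene cannot separate. To show how these starts differ in CpG sites, the windows from 250 bases before to 50 after an upstream and the downstream RefSeq start are given. They come from the RefSeq table of the GRCm38.p6 build, with CpG sites in capitals. Methylation of these sites was not measured.
Dnmt3a, upstream start (chr12:3806910-3807209, plus strand): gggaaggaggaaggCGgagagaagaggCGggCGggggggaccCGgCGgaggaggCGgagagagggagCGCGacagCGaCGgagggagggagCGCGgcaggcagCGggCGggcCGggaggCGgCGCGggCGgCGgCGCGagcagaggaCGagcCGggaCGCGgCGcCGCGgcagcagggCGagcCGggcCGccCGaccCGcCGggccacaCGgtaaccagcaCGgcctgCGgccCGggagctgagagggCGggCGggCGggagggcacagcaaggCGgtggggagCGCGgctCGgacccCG
Dnmt3a, downstream start (chr12:3891494-3891793, plus strand): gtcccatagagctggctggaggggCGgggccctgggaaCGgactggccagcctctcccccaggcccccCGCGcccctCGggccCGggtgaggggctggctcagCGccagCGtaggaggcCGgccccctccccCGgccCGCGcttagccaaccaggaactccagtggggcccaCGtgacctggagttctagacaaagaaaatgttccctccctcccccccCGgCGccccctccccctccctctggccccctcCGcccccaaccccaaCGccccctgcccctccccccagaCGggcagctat
The upstream window holds 47 CpG sites and the downstream window 18, where 1.44% and 29.7% of all 32851 promoter windows of this length hold as many or more. The median of all windows was 7 sites. Windows were found for 7 of the 9 genes, the exceptions being Mbd1 and Mbd2, and the highest number among them was 57 for Tet2.

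In females, Dnmt3a ranged over the 6 air libraries from 124 to 150.0 CPM, with a median of 134. The nicotine libraries had 130.0, 149, 153, 159 and 164 CPM, and the libraries without nicotine had 142, 143, 147, 149 and 156 CPM. Of the nicotine libraries 3 of 5 lay above all air libraries, 1 of 5 did so without nicotine, and the groups overlapped. The mean was 151 ± 13.2 CPM with nicotine (SD, n = 5) and 147 ± 5.60 without (n = 5), against 135 ± 10.3 in air (n = 6). With nicotine the log2 fold change was 0.16 ± 0.06 (SE), with an edgeR unadjusted p of 0.0148 and an adjusted p of 0.0842, and the exact two-sided permutation test gave p = 0.0606 where 0.00433 was the smallest it could give. Without nicotine it was 0.13 ± 0.06 with an adjusted p of 0.135 in edgeR. One library decided how near the first value came to the threshold: without female nicotine replicate 3, which had the lowest value of its group, the log2 fold change was 0.21 and the adjusted p 0.0136 in edgeR, with 930 of 15081 genes called. Once the cortical marker level was taken as a covariate, the log2 fold change of Dnmt3a in females was 0.04 ± 0.08 with nicotine and -0.04 ± 0.09 without.

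In males, Dnmt3a ranged in air from 149 to 183 CPM with a median of 162, and with nicotine from 157 to 176 with a median of 166. The libraries without nicotine had 165, 168, 173, 192 and 197 CPM. Thus 2 of 5 libraries without nicotine lay above all air libraries, and 0 of 6 with nicotine did. Against air the log2 fold change was 0.12 ± 0.06 (SE) without nicotine, with an edgeR adjusted p of 0.131, and 0.02 ± 0.05 with nicotine, with an adjusted p of 0.892. Leaving out replicate 21, the change with nicotine was 0.03 ± 0.06. Over all alternatives, the cortical marker covariate included, the male value without nicotine ran from 0.09 to 0.19. The value with nicotine ran from -0.0014 to 0.06.

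Dnmt1, the maintenance methyltransferase (chr9:20711650-20757317, minus strand), showed means that lay close together. In females the mean was 38.6 ± 1.28 CPM in air (SD, n = 6), 37.9 ± 3.03 with nicotine (n = 5) and 37.9 ± 1.94 without (n = 5). In males it was 44.0 ± 2.13 (n = 6), 43.4 ± 2.70 (n = 6) and 42.7 ± 4.03 (n = 5). The 95% intervals of its change against air ran from -8.99% to 5.81% with nicotine and from -9.04% to 5.70% without in females. They ran from -9.28% to 6.85% and from -10.9% to 5.69% in males. Leaving out replicate 21, the log2 fold change of Dnmt1 with nicotine against air in males was -0.03 ± 0.06.

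Dnmt3b (chr2:153475186-153513466, plus strand), the other methyltransferase of new sites and mainly known from the early embryo, was near the lower end of what these libraries could measure. Its counts are also uncertain because of a close copy, the pseudogene Gm14490 (chr2:153522388-153555641), which lies next to it on the same chromosome. Of the 32-base windows of Dnmt3b exons, 12.9% occur elsewhere in mm9, against at most 2.04% for the genes other than Dnmt3b and Uhrf1. The reads were longer than these windows and were mapped to the transcriptome, so this share does not give how many reads were ambiguous. Whether the mapped sequences held the copy is not given in the sources used here. Of 21 coding exons of at least 60 bases, 11 have a stretch in the copy that matches without gaps at 92.5% to 100% of bases. The first 120 bases of the longest such exon are shown with the copy, read on the plus strand, with differing bases in capitals.
Dnmt3b (chr2:153500594-153500713, plus strand): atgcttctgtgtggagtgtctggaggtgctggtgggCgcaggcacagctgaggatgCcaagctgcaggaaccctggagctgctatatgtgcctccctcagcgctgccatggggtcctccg
Gm14490 (chr2:153543085-153543204, plus strand): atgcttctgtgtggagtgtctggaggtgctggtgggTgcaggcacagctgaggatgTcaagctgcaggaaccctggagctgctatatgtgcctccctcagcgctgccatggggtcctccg
These stretches differ at 2 of 120 bases, while the reads were mapped with up to 2 mismatches allowed.

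In males, Dnmt3b had 0.340 to 0.667 CPM in air with a median of 0.541, from 8 to 15 counts a library. With nicotine it ranged from 0.617 to 1.01 CPM with a median of 0.818, from 11 to 25 counts. Without nicotine the values were 0.217, 0.474, 0.558, 0.608 and 0.805 CPM. Thus 5 of 6 nicotine libraries lay above all air libraries and 3 of 6 above all libraries without nicotine. The log2 fold change with nicotine against air was 0.64 ± 0.24 (SE), a ratio of 1.55 with a 95% interval from 1.10 to 2.19, at an unadjusted p of 0.0147 and an adjusted p of 0.219 in edgeR. The exact two-sided permutation test of this gene alone gave p = 0.00649, where 0.00216 was the smallest it could give, 1 of 54 such tests, unadjusted. Against no nicotine the log2 fold change was 0.63 ± 0.25 with an adjusted p of 0.154, and without nicotine against air it was 0.00 ± 0.26. Without replicate 21 the change with nicotine against air was 0.67 ± 0.25 with an adjusted p of 0.255 in edgeR and an exact permutation p of 0.0130, and against no nicotine it was 0.66 ± 0.26 with an adjusted p of 0.187. The coefficient of variation of Dnmt3b was 22.3% in male air libraries and 17.6% with nicotine, where counting alone gives 29.5% and 24.4%, and 40.3% without nicotine, where counting gives 29.1%.

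In females the nicotine libraries had 0.257, 0.570, 0.584, 0.720 and 0.728 CPM of Dnmt3b, against 0.258 to 0.699 in air with a median of 0.563. Without nicotine they had 0.448, 0.537, 0.785, 0.858 and 0.951 CPM. The log2 fold change was 0.12 ± 0.29 (SE) with nicotine and 0.42 ± 0.28 without, and neither passed in edgeR, with adjusted p of 0.825 and 0.290. Between the sexes, the change with nicotine differed by 0.51 ± 0.37 log2 units (males minus females), with an adjusted p of 0.856 in edgeR, and by 0.54 ± 0.39 with 0.865 when replicate 21 was left out.

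Tet1 (chr10:62267318-62361866, minus strand), the least abundant of the dioxygenases per kilobase in air, ranged in females from 22.5 to 31.5 CPM in air with a median of 26.5. With nicotine it had 28.0, 29.1, 29.3, 30.8 and 32.1 CPM, and without nicotine 25.7, 27.3, 28.9, 29.8 and 32.2 CPM. All 5 nicotine libraries lay above the air mean of 26.8 ± 2.85 (SD, n = 6), and 1 of 5 above all air libraries. The log2 fold change was 0.16 ± 0.07 (SE) with nicotine, at an unadjusted p of 0.0423 and an adjusted p of 0.160 in edgeR. With the cortical marker level as a covariate it was -0.01 ± 0.09. In males it was 0.02 ± 0.08 with nicotine and 0.07 ± 0.08 without, with adjusted p of 0.955 and 0.571. Without replicate 21 the value with nicotine was -0.02 ± 0.08.

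Tet2 (chr3:133126643-133207354, minus strand) had a mean in females of 34.8 ± 3.03 CPM in air (SD, n = 6), 38.6 ± 4.83 with nicotine (n = 5) and 35.9 ± 0.755 without (n = 5). The nicotine libraries fell on either side of those without nicotine: 3 of 5 lay above all of them and 2 of 5 below all of them. The log2 fold change against air was 0.15 ± 0.07 (SE) with nicotine and 0.04 ± 0.07 without, with edgeR adjusted p of 0.191 and 0.709. Over all alternatives, the cortical marker covariate included, these ran from -0.00053 to 0.20 with nicotine and from -0.16 to 0.06 without. In males the means were 46.2 ± 4.08 (n = 6), 48.2 ± 5.02 (n = 6) and 50.6 ± 4.58 (n = 5), and the log2 fold change was 0.06 ± 0.07 with nicotine and 0.13 ± 0.08 without, with adjusted p of 0.774 and 0.225. The first of these was 0.08 ± 0.07 when replicate 21 was left out.

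Tet3 (chr6:83312367-83391672, minus strand), the Tet gene with the highest level per kilobase here, separated the aerosols more than it separated either from air in females. It ranged in air from 95.7 to 118 CPM with a median of 106. The nicotine libraries had 99.2, 107, 108, 118 and 119.9 CPM and those without nicotine 96.3, 97.7, 98.7, 100.3 and 101 CPM. All but 1 of the 5 nicotine libraries lay above all libraries without nicotine. Between the aerosols the log2 fold change was 0.16 ± 0.06 (SE), at an unadjusted p of 0.0174 and an adjusted p of 0.574 in edgeR. Of all genes, 8.36% had an unadjusted p below 0.05 in edgeR in this comparison. The exact two-sided permutation test gave p = 0.0238, where 0.00794 was the smallest it could give. In males the nicotine libraries ranged from 104 to 118 CPM with a median of 114, and those without nicotine had 102, 121, 123, 130.4 and 133 CPM. The order of the aerosols was thus the other way in males, with a log2 fold change of -0.10 ± 0.07 with an adjusted p of 0.468, and of -0.08 ± 0.08 without replicate 21.

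Uhrf1 (chr17:56442744-56462909, plus strand), the partner of Dnmt1 at replicating DNA and a gene of dividing cells, is likewise uncertain because of copies: 35.5% of its 32-base windows occur elsewhere in mm9, most of them in the copy Gm5648 (chrX:118448597-118450183) annotated as a pseudogene. Of 16 coding exons of at least 60 bases, 11 match that copy without gaps at 97.1% to 100% of bases. The first 120 bases of the longest such exon are shown with the copy, with differing bases in capitals.
Uhrf1 (chr17:56452464-56452583, plus strand): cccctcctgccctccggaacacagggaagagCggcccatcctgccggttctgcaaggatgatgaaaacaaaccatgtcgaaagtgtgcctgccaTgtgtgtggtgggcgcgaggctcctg
Gm5648 (chrX:118449946-118450065, minus strand): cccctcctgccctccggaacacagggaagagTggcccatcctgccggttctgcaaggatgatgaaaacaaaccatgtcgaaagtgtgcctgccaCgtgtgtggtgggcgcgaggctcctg
The exon of 211 bases differs from the copy at 3 bases, which leaves stretches longer than a 32-base window with no difference. The reads were also longer than such a window, so the share of windows does not give the share of reads that match both places. How reads that match both places were assigned is not given in the sources used here.

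In males, Uhrf1 had 0.384 to 0.807 CPM in air with a median of 0.609, from 8 to 19 counts a library. Without nicotine it had 0.564, 0.790, 1.01, 1.14 and 1.53 CPM, from 13 to 38 counts. With nicotine it ranged from 0.224 to 1.13 CPM with a median of 0.608. Of the libraries without nicotine 3 of 5 lay above all air libraries, and 1 of 6 with nicotine did. The log2 fold change without nicotine was 0.75 ± 0.30 (SE), a ratio of 1.68 with a 95% interval from 1.09 to 2.61, at an unadjusted p of 0.0219 and an adjusted p of 0.0755 in edgeR, and the exact two-sided permutation test gave p = 0.0390. When each library was left out in turn this value ran from 0.54 to 0.91, with edgeR adjusted p from 0.244 without replicate 4 of the group without nicotine to 0.0367 without its replicate 3. With the cortical marker level as a covariate it was 1.18 ± 0.56 with an adjusted p of 0.316. Nicotine against no nicotine gave -0.70 ± 0.30 with an adjusted p of 0.198, and -0.74 ± 0.33 with 0.237 when replicate 21 was left out. It was -0.48 without replicate 4 of the group without nicotine. Nicotine against air gave 0.05 ± 0.31, and 0.01 ± 0.34 without replicate 21. Beside this, the summed level of the 8 tested markers of dividing cells was 21.6 to 34.1 CPM in males without nicotine, with a median of 32.8. In air it was 18.3 to 23.2 CPM with a median of 21.3. None of the 8 tested markers of dividing cells passed, with 7 of 8 at an unadjusted p below 0.05 in edgeR, and their part in the Uhrf1 values was not tested.

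In females, Uhrf1 ranged in air from 0.134 to 0.773 CPM with a median of 0.480, from 3 to 18 counts. With nicotine it had 0.243, 0.463, 0.570, 0.764 and 0.864 CPM and without nicotine 0.312, 0.489, 0.538, 0.540 and 0.867 CPM. The groups overlapped, and the log2 fold change against air was 0.29 ± 0.39 (SE) with nicotine and 0.21 ± 0.39 without, with edgeR adjusted p of 0.684 and 0.734. The intervals were wide: the change with nicotine could lie anywhere from -30.9% to 115% (95% interval). The 8 tested markers of dividing cells had a median log2 fold change in females of 0.66 with nicotine and 0.16 without. None passed, with 5 of 8 and 0 of 8 at an unadjusted p below 0.05 in edgeR, where 28.1% and 36.4% of all genes passed. Their part in the female Uhrf1 values was not tested.

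Mbd1 (chr18:74427926-74442339, plus strand) and Mbd2 (chr18:70727843-70785785, plus strand) are neighbours in function and also lie on 1 chromosome. For Mbd1 the log2 fold change against air in females was -0.06 ± 0.06 (SE) with nicotine and -0.10 ± 0.06 without, with 0 of 5 libraries without nicotine above the air mean of 23.5 ± 1.45 CPM (SD, n = 6) and edgeR adjusted p of 0.534 and 0.205. In males it was -0.03 ± 0.04 and -0.03 ± 0.04. For Mbd2 the changes in females were 0.02 ± 0.05 and -0.01 ± 0.05. In males they were 0.03 ± 0.06 with nicotine and 0.10 ± 0.06 without, the latter with an adjusted p of 0.210, and the values without nicotine were 35.2, 37.6, 39.6, 40.9 and 46.8 CPM against 34.0 to 39.6 in air. Leaving out replicate 21, the male changes with nicotine were -0.04 ± 0.04 for Mbd1 and 0.05 ± 0.06 for Mbd2.

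**Figure D3:**
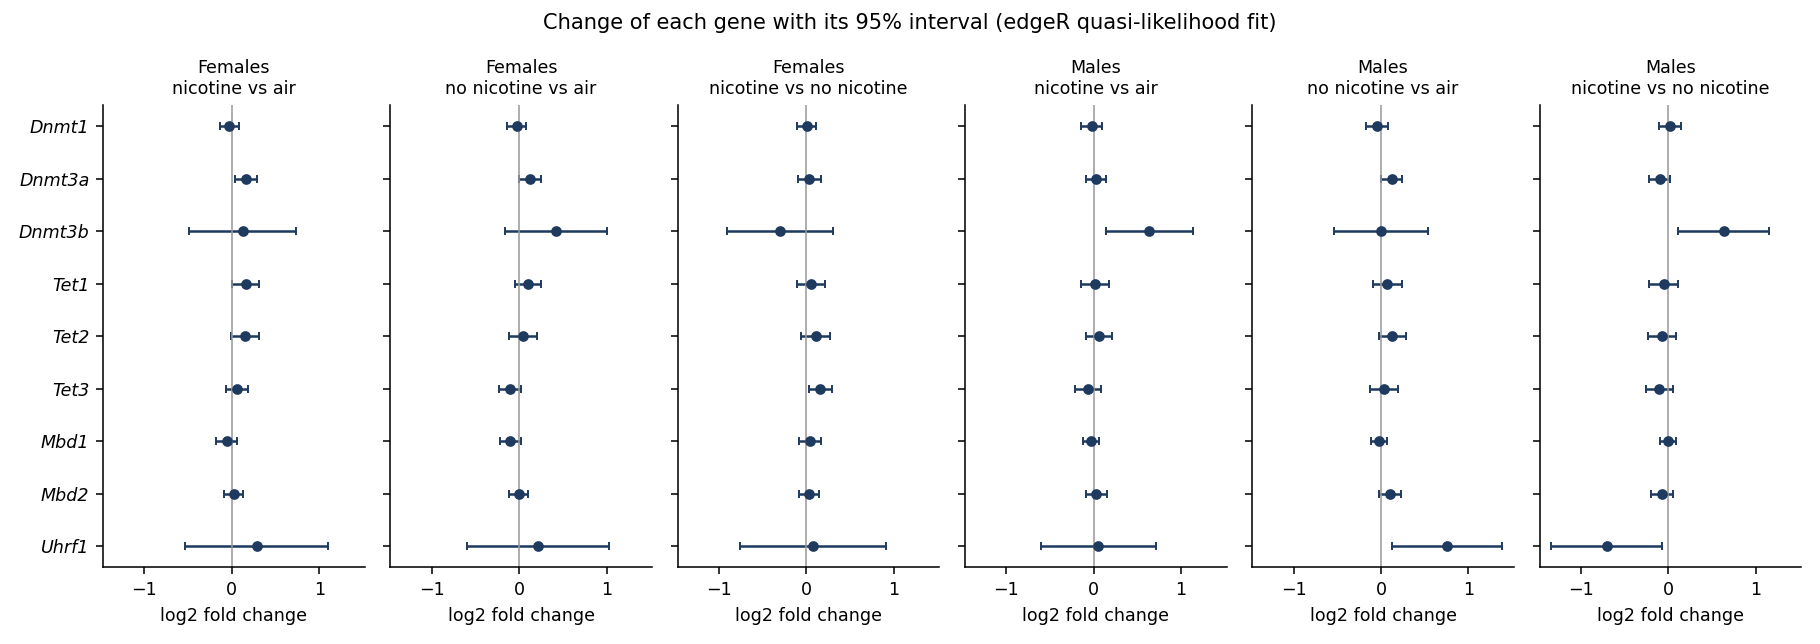
Log2 fold change of each of the 9 genes with its 95% interval in the 6 comparisons within a sex. Intervals for 7 genes are narrow and near 0, and those of Dnmt3b and Uhrf1 span up to more than 1 log2 unit.

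The size of change that these data could have shown differed between the genes. The 95% interval lay wholly within a change of 1.5 times in either direction for 7 of 9 genes in 5 of the 6 comparisons, Dnmt3b and Uhrf1 being the exceptions, and for 8 of 9 in males without nicotine against air, Uhrf1 being the exception. The median absolute log2 fold change of the 9 genes against air was 0.12 (nicotine) and 0.10 (no nicotine) in females and 0.03 and 0.07 in males, where that of all genes was 0.10, 0.12, 0.07 and 0.12. Of the 9 genes, 7 had a log2 fold change above 0 for nicotine and 5 for no nicotine in females. In males these were 6 and 7, or 5 and 7 without replicate 21. The comparisons of a sex share their air libraries. When the change with exposure was compared between males and females in 1 fit, 0 of 9 genes passed for either aerosol in edgeR, DESeq2 or limma-voom, and 0 of 9 had an unadjusted p below 0.05 in edgeR. Of all genes, 0.0% passed at an adjusted p below 0.01 for each aerosol, and 6.47% and 4.91% at an unadjusted p below 0.05 with and without nicotine. The lowest adjusted p among the 9 was 0.825 with nicotine and 0.950 without.

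Correlations between the 9 genes, after removal of the group means, were computed for 36 pairs in each sex, and 0 of 36 had an adjusted p below 0.05 in either sex by permutation within groups. The pair with the lowest p in females was Dnmt3a and Tet1, with Pearson's r = 0.66 (permutation p = 0.00385, adjusted p = 0.139) and Spearman's rho = 0.71 (permutation p = 0.00350, adjusted p = 0.126) over 16 libraries, and r = 0.56 without the 2 libraries farthest from the median of Dnmt3a. In males the same pair had r = 0.53 (permutation p = 0.0384, adjusted p = 0.277) and rho = 0.56 (permutation p = 0.0269, adjusted p = 0.364) over 17 libraries, and r = 0.49 without the 2 farthest. Without replicate 21 it had r = 0.62 (permutation p = 0.0201, adjusted p = 0.189) and rho = 0.59 (permutation p = 0.0332, adjusted p = 0.398) over 16 libraries, and 0 of 36 pairs had an adjusted p below 0.05.

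Genes that work with the 9 were examined next. Of 69 further genes of the pathway, in 5 lists chosen with earlier results of these data known, 64 were tested in females and 65 in males. With nicotine, 1 of 64 passed in females, against 4.29% of all genes, and 0 of 65 in males, against 0.0%. At an unadjusted p below 0.05 in edgeR these were 22 of 64, against 28.1% of all genes, and 8 of 65, against 14.4%. Without nicotine, 5 of 64 passed in females, 1 higher and 4 lower, against 12.1% of all genes. In males 12 of 65 passed, 6 higher and 6 lower, against 13.6% of all genes, and 11 of 65 without replicate 21. Between the aerosols 0 passed in either sex, against 0.0% and 0.248% of all genes. At an unadjusted p below 0.05 in edgeR these were 1 of 64 in females, against 8.36% of all genes, and 13 of 65 in males, against 20.1%. The median log2 fold change of the tested genes was between -0.03 and 0.01 in all comparisons, where that of all genes was between -0.01 and 0.02.

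Among the lists, the methyl donor cycle, which makes S-adenosylmethionine, held 17 genes. Of these, 4 of 16 tested passed in males without nicotine, where 13.6% of all genes passed. Mat2a, the catalytic subunit of the enzyme that makes S-adenosylmethionine, rose from 33.7 ± 1.82 CPM in air (SD, n = 6) to 42.6 ± 2.21 (n = 5), a log2 fold change of 0.34 ± 0.05 (SE) with an edgeR adjusted p of 0.000138. Its regulatory subunit Mat2b moved the other way, from 149 ± 13.1 to 114 ± 8.17 CPM, with -0.39 ± 0.06 and an adjusted p of 0.000354. Mthfd1, an enzyme of the folate cycle, rose by 0.24 ± 0.04 log2 units with an adjusted p of 0.000254. In females without nicotine Mat2b also fell, with -0.34 ± 0.08 and an adjusted p of 0.00596 in edgeR. It was the 1 of 15 genes tested that passed, where 12.1% of all genes passed. Mat2a there had a log2 fold change of 0.15 ± 0.06 with an adjusted p of 0.0554. Folr1, a folate receptor that is also in the list of choroid plexus markers, had the most extreme value of this list, 3.34 ± 1.06 in males without nicotine with an adjusted p of 0.0268, and a mean of 1.86 ± 3.75 CPM there shows that its level differed widely among those 5 libraries. The summed choroid plexus and ependyma markers ran there from 22.8 to 918 CPM.

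Other readers of methylated CpG and their corepressors, 21 genes with all tested, had 2 genes that passed in females without nicotine, both lower. In males without nicotine 4 passed, of which 3 were lower. Of all genes, 12.1% and 13.6% passed in these comparisons. Ncor1, a corepressor that methyl-CpG readers recruit, fell from 148 ± 7.18 to 123 ± 8.78 CPM in females without nicotine (log2 fold change -0.27 ± 0.05, adjusted p 0.00133 in edgeR) and from 179 ± 8.88 to 148 ± 7.16 in males (-0.28 ± 0.04, adjusted p 0.000211). Gatad2b, a subunit of the NuRD repressor complex that Mbd2 recruits, fell in females with nicotine (-0.21 ± 0.05, adjusted p 0.00859) and without (-0.21 ± 0.05, adjusted p 0.00408), and was the 1 pathway gene that passed with nicotine. Mbd5 and the zinc-finger reader Zbtb38 fell in males without nicotine, with log2 fold changes of -0.21 ± 0.04 and -0.28 ± 0.06. Rbbp4, a histone-binding subunit of NuRD and the only other gene to pass there, rose by 0.14 log2 units with an adjusted p of 0.00939, or 0.0107 in edgeR without replicate 21, and stood outside the limit on the number of genes named and was added after its values were seen.

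Proteins with a CXXC domain, which bind CpG sites that are not methylated, had 2 of 7 pass in males without nicotine and 1 of 7 in females without. The shares of all genes there were 13.6% and 12.1%. Cxxc5 fell in both, with a log2 fold change of -0.35 ± 0.07 in females (adjusted p 0.00322 in edgeR) and -0.35 ± 0.06 in males (adjusted p 0.000652). Cxxc4 rose in males, with 0.32 ± 0.07 and an adjusted p of 0.00444. Of the removal and repair genes, 13 of 15 were tested, and Idh1, an enzyme that makes the 2-oxoglutarate the Tet enzymes use, rose without nicotine by 0.28 ± 0.05 in females (adjusted p 0.00192) and 0.25 ± 0.05 in males (adjusted p 0.00200). Parp1, which acts in DNA strand repair, fell in males without nicotine by 0.18 ± 0.04 log2 units with an adjusted p of 0.00379. None of the 8 tested writer partners passed in any comparison in edgeR, where at most 13.6% of all genes passed. At most 1 of 8 had an unadjusted p below 0.05, where at most 36.4% of all genes did. The cell type markers given above moved in the same comparisons, and their part in the changes of these pathway genes was not tested.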

How the data were processed

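Frontal cortex RNA-Seq was measured in 33 offspring. The authors mapped single reads to the mm9 mouse transcriptome with Bowtie, removed PCR duplicates with SAMtools and counted reads per gene with HTSeq, and deposited raw counts in 1 table per sex. They also deposited the counts divided by DESeq2 size factors as a normalized signal, which was used here only for an alternative permutation test. The sources used here do not state whether counting used strand. Columns were matched to the labels by name, and 1 column of per-sample values matched no sample and was not used.

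The members and the pathway and marker lists were chosen with earlier results of these data known. Genes were tested where the libraries of 1 sex together gave at least 5 CPM, in a fit of the 3 groups of that sex with edgeR 4.0.16 (quasi-likelihood test, TMM, R 4.3.3) and Benjamini-Hochberg adjustment over all genes, and called at an adjusted p below 0.01. Changes were compared between the sexes in 1 fit of 6 groups over 15105 genes. Single genes were also tested by exact two-sided permutation of log2 CPM (prior count 1, SciPy 1.17.1), and 95% intervals come from the fit. Alternatives were DESeq2 1.42.0, limma-voom (limma 3.58.1), other scalings and filters, a fit of the 2 groups compared, a cortical marker covariate, a replicate block and leaving out each library. The male pathway counts, permutation tests and correlations without replicate 21 were added after the data were seen. The scripts were tested on simulated data. All 9 members were to be named, and of the pathway lists the 12 genes with the smallest p among those called against air. Of these, 1 gene is not reported here. Genes alike a called member were to be named too, but no member was called. Gene positions come from GENCODE vM1 on mm9. The labels do not say that libraries of a group are more than separate samples, but the study took 1 pup per litter.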

Additional observations from a re-analysis of the deposited data

Results flagged for a closer look

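In 54 groups of 5 or 6 libraries, 1 for each gene, sex and exposure, 1 value stood apart from its group. Tet3 in the library labelled male nicotine replicate 21 was the lowest of 6 at 104 CPM, where the next value was 113 CPM, a gap of 0.663 of the group's whole range. Chance alone gives such a gap in about 1 in 20 groups. This is the library whose Xist and Y-linked counts went against its label. Without it, the log2 fold change of Tet3 with nicotine against air in males was -0.04 ± 0.07 (SE), against -0.07 ± 0.07 with it, and neither passed the test.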

How the results depend on the processing

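Across all alternatives, 0 of 2036 values of the 9 genes had an adjusted p below 0.01, so the count of genes called stayed at 0 in each comparison, also when each library was left out in turn (lowest 0 and highest 0). The lowest adjusted p was 0.0136 (Dnmt3a, females, nicotine against air, without female nicotine replicate 3), and outside the fits that leave out a library it was 0.0518 (Uhrf1, males, no nicotine against air, only the 2 groups compared). Of 72 effects, 29 changed sign in at least 1 alternative and 43 in none, and 22 values moved by more than 1 SE, 20 of them with the cortical marker covariate. Without male nicotine replicate 21, an alternative added after the data were seen, the pathway genes called in males without nicotine numbered 11 in place of 12, Rbbp4 being lost, and no exact permutation test of a male value crossed 0.05. The number of exact permutation tests with p below 0.05 was 4 with CPM and 4 with the authors' normalized values. The order of levels per kilobase kept 14 of 18 places when the longest transcript was used in place of all exons, with Dnmt3a and Tet3 exchanging theirs in both sexes. The stricter filter left no value for Dnmt3b and Uhrf1 in either sex, and DESeq2 gave no adjusted p for them for nicotine against air in males. In females the groups share replicate numbers: of 14 same-numbered pairs of libraries, 4 had deviations correlated above 0.1, with r from -0.27 to 0.27, so the numbers were not taken to pair the samples. With the replicate block 0 of 9 genes were called in each female comparison. The males share no replicate numbers. Depth limited Dnmt3b and Uhrf1, with at most 25 and 38 counts a library, and their close copies add an uncertainty that deeper sequencing alone would not remove.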
